A study of Xenopus laevis with 30 samples.

Results

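The late embryo of the clawed frog Xenopus laevis at stage 43 was compared with that at stage 37-38, the next earlier stage sampled. Each stage was represented by 2 arrays, so that 4 of the 30 arrays of the developmental series entered the comparison. All animals were wild type and of mixed sex, none was treated, and each array carried RNA from several whole embryos pooled together, which the labels call a biological replicate. The sources used here do not give the parents of the pools, and the p-values therefore measure only the spread between these pools. A probe set, the group of short probes that reports 1 transcript, was tested if its signal exceeded the median of the array on both arrays of 1 of the stages or of both. This held for 16823 of the 32539 probe sets that were not controls: 14870 were above the median at both stages, 980 at stage 37-38 alone and 973 at stage 43 alone.

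Between these stages the tadpole forms most of its digestive tract. The gut starts as a short tube of yolk-laden endoderm, lengthens and coils, and splits into stomach, intestine, liver and pancreas, while a coat of smooth muscle forms around it. Acinar cells of the pancreas make digestive enzymes as inactive precursors, gland cells of the stomach secrete acid and pepsin-like proteases, and enterocytes of the intestine absorb lipids, amino acids and sugars through a brush border held up by actin bundles. Over the same time the hatching glands and the ciliated cells of the embryonic skin, which serve the embryo before and just after hatching, go out of use.

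Signals are in the arbitrary units of the deposited MAS5 values, which were scaled by the authors to the same trimmed mean on every array. The median signal of the 4 arrays lay between 172.6 and 182.8 units. With 2 arrays a stage, precision is limited by their number. Where the dimmer stage lay under its array medians, the fold is given as "at least", set against those medians, a chosen floor rather than a measured background. A gene was called higher or lower when its adjusted p in the limma fit was under 0.05. Log2 signals of the tested probe sets correlated at 0.991 between the replicates of either stage and at 0.873 to 0.893 between the stages, and all 30 arrays were closest to the other array of their own stage. All 5 hepatocyte markers, all 5 skeletal muscle markers and all 3 photoreceptor markers chosen as a check were above the median at both stages, and the markers of intestinal epithelium went from 2 to 3 of 3. Neuron markers went from 4 to 5 of 5, exocrine pancreas markers from 1 to 3 of 7 and leukocyte markers from 3 to 2 of 5. At both stages 3 of 5 erythrocyte, 3 of 4 motile ciliated cell and 2 of 3 cement and hatching gland markers were above it. The 3' to 5' signal ratio of the control gene gapdh was 1.61 to 1.67 on the 4 arrays, while that of the elongation factor control was 1.92 and 2.09 at stage 37-38 and 3.23 and 3.16 at stage 43; its part in the changes was not tested.

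Of the tested probe sets, 6398 (38.0%) differed between the stages: 2422 (14.4%) were higher at stage 43 and 3976 (23.6%) were lower. The share of calls that were higher was thus 37.9%, and it depended on the scaling. The added poly-A control RNA, at 179 and 223 units on the arrays of stage 37-38 and 158 and 194 on those of stage 43, would put every stage 43 value 0.19 higher on the log2 scale, and with that scaling 2067 probe sets were higher and 568 lower, so that 78.4% of calls were higher. With each array centred on its median the share was 29.5%. Large changes were mainly rises under the deposited scaling: 431 probe sets rose at least 2-fold and 155 fell at least 2-fold, 108 rose and 35 fell at least 4-fold, and 37 rose and 5 fell at least 10-fold. These folds were set against the array medians where the dimmer stage lay under them. Of the 37 largest rises, 25 came from probe sets that were not above the array median on both arrays of any earlier stage, and 32 were higher still at stage 48. For all 2422 higher calls these counts were 189 and 1542, and for all 16823 tested probe sets 444 and 6151. Fewer cells of a type and less RNA per cell cannot be told apart in RNA from whole embryos, nor can more cells of a type and more RNA per cell.

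Counted as genes, with the brightest probe set standing for each of 6692 symbols, 1062 (15.9%) were higher at stage 43 and 1871 (28.0%) were lower, and the median log2 change of all genes was -0.06. These shares are the background against which the gene lists are read. In the lists for intestinal absorption, smooth muscle, oxidative phosphorylation, liver plasma proteins and endoderm regulators, 0 genes were lower even at an unadjusted p under 0.05 in the limma fit, and in those for the cell cycle, motile cilia and hox genes 0 were higher.

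The pancreas list held genes for digestive enzymes. Of its 26 listed genes on the array 13 were bright enough to be tested. Of these, 12 rose and 1 fell, and their median log2 change was 5.74. All 12 passed the filter only through their own signal at stage 43. None was above the array median on both arrays of any earlier stage. The filter thus favoured rises, and the count and the median describe the tested members and not the whole list.

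The chymotrypsinogen gene ctrb1 gave 156 and 84.3 units at stage 37-38 and 8394 and 10308 at stage 43, a rise of at least 53.4-fold (log2 change 6.34 ± 0.55 SE, limma adjusted p = 4.30e-08). Both later arrays lay far above both earlier ones, which were under the array median. Its relative ctrl went from 28.3 and 6.87 units to 3692 and 5178, at least 25.1-fold (limma adjusted p = 5.29e-06). For ctrc, a chymotrypsin that acts on other zymogens in mammals, the signals were 107 and 55.1 before and 3662 and 4616 after, at least 23.6-fold (limma adjusted p = 6.90e-04). The trypsinogen gene prss2, whose product activates the other precursors once it is cut in the intestine, rose from 178 and 134 units to 3589 and 4451, at least 22.8-fold. For all 4 serine proteases both arrays of stage 43 lay above both of stage 37-38.

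The carboxypeptidase genes cpa1 and cpb1, whose products trim amino acids from peptide ends, reached 1003 and 1128 units and 876 and 1487 units, from signals between 14.7 and 42.7. Their rises were at least 6.10-fold and at least 6.55-fold. The elastase genes cela2a and cela1.5 reached 465 and 689 units and 371 and 814 units, rises of at least 3.25-fold and at least 3.15-fold. For each of these 4 genes the stages did not overlap.

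The bile salt-activated lipase gene cel.2 went from 103 and 86.6 units to 866 and 1104, at least 5.61-fold. The amylase gene amy2b, whose product digests starch, gave 0.263 and 0.362 units at stage 37-38 and reached 288 and 579 at stage 43, at least 2.34-fold (log2 change 10.37 ± 1.36 SE, limma adjusted p = 6.71e-06). The fitted value is much larger than the bound because it takes signals under 1 unit at face value. The DNase gene dnase1 reached only 188 and 186 units, at least 1.07-fold. The pancreatic chaperone pdia2, a disulphide isomerase that helps fold secreted enzymes, rose at least 10.4-fold, from 115 and 74.8 to 1725 and 1909 units.

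All 12 genes that rose were higher still at stage 48. The stage 48 arrays gave 11328 and 10244 units for amy2b and 19083 and 20205 for ctrb1. A further amylase gene, amy2a, was at 140 and 248 units at stage 43 and was not tested there because 1 array fell short of the median, and at stage 48 it gave 13551 and 14739. The elastase gene cela1.1 was at 23.2 and 47.9 units at stage 43 and at 1526 and 1761 at stage 48, and cela1.2 reached 2431 and 2746 there. Enzyme classes did not separate at stage 43. The 4 protease genes described first were above the median on both arrays, as were amy2b, cela2a and cela1.5. Not above it on both arrays were amy2a, cela1.1 and cela1.2. The protease genes prss1 (54.9 and 92.7 units), prss3 (44.1 and 35.7) and ctrb2 (29.9 and 31.6) were not above it either. The gene of the transcription factor ptf1a, which specifies the pancreas, stayed under the array median at 111 and 132 units and then 140 and 153.

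**Figure D1:**
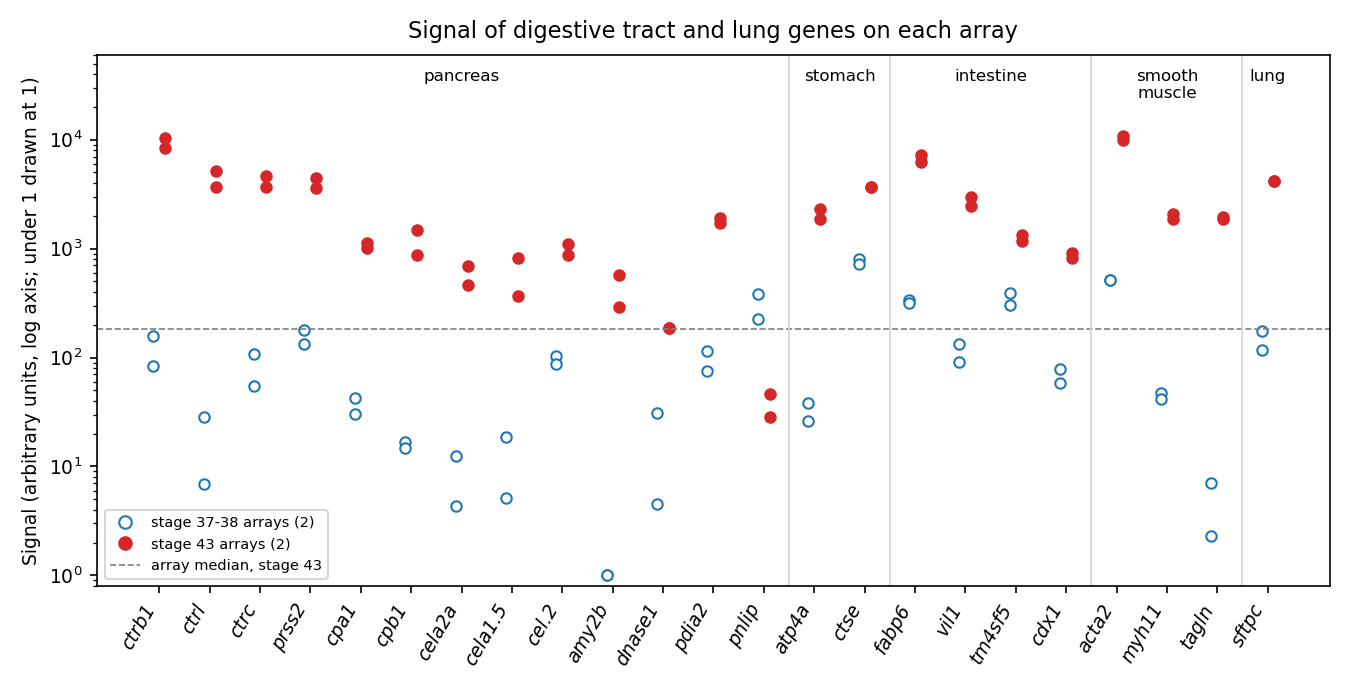
Signal of genes of the digestive tract and lung on each of the 4 arrays, in units on a log axis, with values under 1 drawn at 1 and the dashed line at the array median of stage 43. For every gene shown the 2 arrays of stage 43 are clear of the 2 of stage 37-38, and pnlip is the gene that is lower at stage 43.

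The exception was the probe set annotated as pnlip, the colipase-dependent lipase of the pancreas. It gave 224 and 383 units at stage 37-38 and 46.5 and 28.2 at stage 43, a fall of at least 1.62-fold (limma adjusted p = 0.00474). It was above the median at earlier stages already, with 1605 and 1400 units at stage 23, where the other 12 genes were under it. Without the second array of stage 43 the limma adjusted p was 0.0511 and the call was lost.

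Of the stomach and mucus list, 5 of 11 genes on the array were tested and 2 rose, against 15.9% of all genes. One of them, atp4a, was tested only through its signal at stage 43. The gene atp4a encodes the catalytic subunit of the gastric proton pump, which acidifies the stomach. It gave 26.3 and 38.3 units at stage 37-38 and 1852 and 2309.8 at stage 43, a rise of at least 11.9-fold (log2 change 6.03 ± 0.99 SE, limma adjusted p = 7.38e-05), and had not been above the array median at any earlier stage. The partner subunit atp4b was at 2.33 and 0.639 units and then at 176 and 278, so that 1 of its arrays at stage 43 crossed the median and it was not tested. The aspartic protease gene ctse rose 4.86-fold from a measurable level, 804 and 717 units, to 3696 and 3677 (limma adjusted p = 3.93e-05). A trefoil peptide gene outside the list, tff3.2, whose family protects mucous surfaces, rose from 163 and 134 units to 1960.0 and 2057, at least 11.5-fold.

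The transcription factor gene sox2, which marks foregut but also the nervous system, was 1.17-fold lower, a call that was lost with poly-A scaling and without 1 array of either stage (limma adjusted p = 0.0139 with all arrays, and 0.903, 0.145 and 0.0911 in those settings). The goblet cell chaperone gene agr2 gave 6346 and 7046 units and then 8618 and 9003, and the lectin gene itln1 gave 20676 and 20105 and then 18003 and 16619. Neither passed the test, whereas the S copy of agr2, at 2664 and 2806 and then 4958 and 5283 units, was called higher (limma adjusted p = 0.0012). The probe set for pga4, a pepsinogen gene, was at 1.41 and 10.8 units at stage 43 and was not tested.

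In the intestinal absorption list 12 of 21 tested genes rose and none was called lower, a share of 57.1% against 15.9% of all genes, with a median log2 change of 0.95. Of the 12, vil1, cdx1 and slc7a9 were under the array median at stage 37-38 and were tested only through their signal at stage 43. The ileal bile acid-binding protein gene fabp6 gave 339.6 and 320.0 units at stage 37-38 and 6222 and 7232 at stage 43, a 20.3-fold rise (log2 change 4.35 ± 0.38 SE, limma adjusted p = 3.65e-08). Villin, the actin bundler of the brush border, is encoded by vil1, which rose at least 15.5-fold from 132 and 91.7 units to 2463 and 2948. The homeobox gene cdx1, a regulator of intestinal identity, rose at least 4.95-fold, from 79.3 and 58.8 units to 815 and 915, and its relative cdx2 rose 1.42-fold, from 271 and 236 units to 341 and 377, a call lost without the second array of either stage (limma adjusted p 0.0796 and 0.0673). In all 4 genes both arrays of stage 43 lay above both of stage 37-38.

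Brush-border peptidases and transporters rose as well. The dipeptidyl peptidase gene dpp4 rose 3.27-fold to 2499.5 and 2732 units, the amino acid transporter gene slc7a9 at least 2.81-fold to 355 and 675, and the membrane protein gene tm4sf5 3.65-fold to 1168 and 1340.4. The related tm4sf4 was 14.6-fold higher, but its call was lost when any 1 of the 4 arrays was left out (limma adjusted p 0.0356 with all, 0.0972 to 0.138 without 1). The unconventional myosin gene myo1a rose 1.71-fold and epcam, an epithelial adhesion gene, 1.36-fold.

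The other 9 tested intestinal genes did not pass, although 8 of them had higher signals at stage 43. The neutral amino acid transporter gene slc6a19 gave 554 and 410.1 units and then 1313 and 1508, and the aminopeptidase gene anpep gave 290.0 and 258 and then 894 and 1399. The lipid carriers fabp2 and apob were already bright at stage 37-38, at 6433 and 5949.9 units and 4273 and 3766, and gave 10077 and 11415 and 7558 and 7979 at stage 43. The sodium-glucose transporter gene slc5a2, also a member of the kidney list, was the 1 with lower values, at 454 and 321 units and then 319 and 311. The spread in the limma fit came from all 15 stages, and it was wide for genes that were near 0 in the early embryo: the standard error of the log2 change of fabp2 was 1.27 in that fit and 0.32 in a fit of the 10 arrays of stages 28 to 48. With those 10 arrays 17 of the 21 intestinal genes were called higher, where 1453 of all 6692 genes (21.7%) were higher and 1965 (29.4%) lower.

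Of 10 tested members of the smooth muscle list 6 rose, against 15.9% of all genes, and none was called lower, with a median log2 change of 1.05. Of the 6, myh11, tagln and cnn1 were under the array median at stage 37-38 and were tested only through their signal at stage 43. The gene acta2, for smooth muscle actin, gave 511 and 514 units at stage 37-38 and 9962 and 10706 at stage 43, a 20.2-fold rise (log2 change 4.33 ± 0.25 SE, limma adjusted p = 3.45e-10). The smooth muscle myosin heavy chain gene myh11 rose at least 11.3-fold from 47.5 and 41.2 units to 1866 and 2069.9. The calponin-related genes tagln and cnn1, whose products bind actin in contractile smooth muscle, rose at least 11.0-fold and at least 3.50-fold, to 1861 and 1966 units and to 562 and 662. The contractile genes smtn and myl9 rose 2.01-fold and 2.12-fold. The transcription factor genes foxf1 and nkx2-3, which act earlier in the gut mesoderm of vertebrates, gave 607 and 586 and then 682 and 669.7 units, and 227 and 245 and then 204 and 205, and neither passed the test.

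The lung, another outgrowth of the foregut, gave 1 of the largest changes. The surfactant protein gene sftpc, made by the cells that lower surface tension in air spaces, gave 176 and 118 units at stage 37-38 and 4135 and 4168 at stage 43, a rise of at least 23.8-fold (log2 change 4.85 ± 0.31 SE, limma adjusted p = 6.39e-10). The surfactant gene sftpb rose to 190.4 and 242 units, at least 1.23-fold. The lung and thyroid regulator nkx2-1 and the lipid pump gene abca3 were at 242 and 244 and 1075 and 965 units and then at 165 and 178 and 824 and 825, and neither passed the test.

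**Figure D2:**
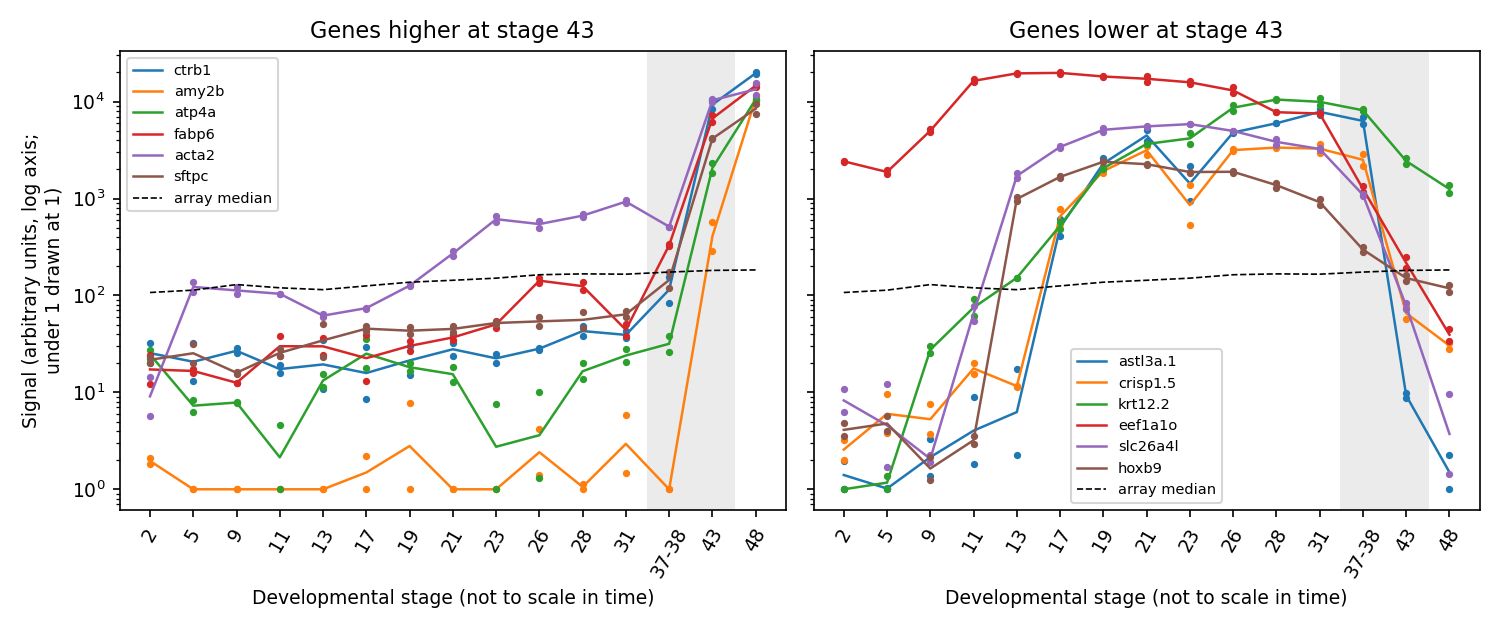
Signal over all 15 stages of 6 genes that were higher (left) and 6 that were lower (right) at stage 43, in units on a log axis with values under 1 drawn at 1, points for single arrays, lines through stage means, a grey band at the compared stages and a dashed line at the array median. The genes on the left stand far above the median at stage 43 after low signals in the early embryo, and those on the right reach their highest signals before stage 37-38.

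Of 33 tested genes for plasma proteins, which the liver secretes, 3 rose and none was called lower, against 15.9% and 28.0% of all genes. Some gave high signals at both stages. The apolipoprotein gene apoa1 gave 15683 and 15119 units and then 18762 and 19598, and the transthyretin gene ttr 13679 and 13229 and then 15610.0 and 16948. Neither passed the test. The transferrin gene tf, for the iron carrier of plasma, was the largest rise among them, from 1190.0 and 1016 units to 5140.4 and 5162, 4.68-fold (limma adjusted p = 1.14e-05), and ahsg, for a plasma glycoprotein, rose at least 3.08-fold to 502 and 592 units. With the 10 arrays of stages 28 to 48 alone, 14 plasma protein genes were called higher and 3 lower, against 21.7% and 29.4% of all genes in that fit.

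Liver enzymes changed in both directions, with 3 of 20 tested genes higher and 5 lower, shares close to those of all genes. The gene bhmt, for the betaine-homocysteine methyltransferase of methionine metabolism, rose 4.81-fold from 982 and 1254 units to 5048 and 5636 (log2 change 2.27 ± 0.18 SE, limma adjusted p = 1.64e-08). The glutathione transferase gene gstm1 rose 2.09-fold to 6857 and 6733 units. Against these, the gluconeogenic enzyme gene fbp1 fell 1.80-fold, from 15277 and 15289 units to 8451 and 8493 (limma adjusted p = 6.86e-11), arg1, for the last enzyme of the urea cycle, fell 2.09-fold, and sds, for serine dehydratase, fell at least 2.68-fold. All 3 were higher again at stage 48, where fbp1 gave 14296 and 14821 units. Several enzymes of amino acid and alcohol breakdown had high values at stage 43 without passing: adh1c gave 845 and 432 and then 3913 and 4259.8 units, and agxt 674 and 517 and then 1944 and 2154. With the 10 late arrays 12 of the 20 were called higher, against 21.7% of all genes, and 5 lower, against 29.4%.

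Of 16 tested regulators of endoderm and genes of endocrine cells, 3 rose, against 15.9% of all genes, and none was called lower. The median log2 change of the list was 0.05. In the fit of the 10 late arrays 7 were called higher, against 21.7% of all genes, and 4 lower, against 29.4%. The pioneer factor gene foxa2 rose 1.59-fold from 216 and 219.7 units to 315 and 382, and the call was lost without the second array of stage 43 (limma adjusted p = 0.0078 with all arrays and 0.098 without it). The calls of gata4 and chga, at 1.49-fold and 1.48-fold, were lost when any 1 of the 4 arrays was left out. The insulin gene ins gave 132 and 202 units at stage 37-38 and 243 and 326 at stage 43, and the glucagon gene gcg 0.432 and 2.15 and then 31.1 and 49.0. The first did not pass the test and the second was under the median at both stages. Hepatocyte nuclear factor hnf4a was at 659 and 639.6 units and then at 488 and 524, also without a call.

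Muscle genes gave a few large rises. Of 36 tested skeletal muscle genes 4 (11.1%) rose and 1 (2.78%) fell, against 15.9% and 28.0% of all genes. The median log2 change was 0.15. With the 10 late arrays 16 were called higher and 6 lower, against 21.7% and 29.4% of all genes. In the main fit myl2 and tnni1, both called higher, were tested only through their signal at stage 43. The 4 that rose are known from slow or cardiac muscle in vertebrates. The regulatory light chain gene myl2 gave 232 and 169 units at stage 37-38 and 8623 and 9214 at stage 43, a rise of at least 44.6-fold (log2 change 5.49 ± 0.70 SE, limma adjusted p = 4.69e-06). The slow troponin gene tnni1 rose at least 11.0-fold to 1841 and 2116 units and the essential light chain gene myl3 10.7-fold to 4637 and 5249. The cardiac myosin heavy chain gene myh6 rose 5.25-fold, from 703 and 741 units to 3646 and 3942.

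Genes of fast skeletal muscle were already bright. The muscle creatine kinase gene ckm gave 17896 and 18554 units and then 19775 and 20994 and did not pass. The glycogen phosphorylase gene pygm, which releases glucose for contraction, fell 1.86-fold to 1039.8 and 1048 units, while its 2 other tested probe sets were not called. The myogenic regulator myog gave 1534 and 1391 units and then 538 and 568, with a limma adjusted p of 0.0605. Of 13 tested heart genes 4 rose and none was called lower, against 15.9% and 28.0% of all genes. The 4 were myl2 and myh6 again, gata4, and mybpc3, for the myosin-binding protein of the cardiac sarcomere. The last rose 2.22-fold from 2959.6 and 3295 units to 6236 and 7678, and myl2 was tested only through its signal at stage 43. With the 10 late arrays 7 heart genes were called higher and 2 lower, against 21.7% and 29.4% of all genes. The atrial peptide gene nppa, at 208 and 195 and then 300.0 and 363 units, did not pass. Whole embryos do not show whether myl2 and myh6 came from heart, slow fibres or both.

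Of 23 tested photoreceptor and retina genes 7 rose and 2 fell, against 15.9% and 28.0% of all genes, and the median log2 change was 0.82. Among the 7, prph2 and pde6b were under the array median at stage 37-38 and were tested only through their signal at stage 43. The retinal disc transporter gene abca4 rose 2.64-fold from 457 and 374 units to 1039 and 1148, and pde6b, for a subunit of the phosphodiesterase of the light response, rose at least 2.16-fold to 388 and 364. The retinoid carrier gene rbp3 was 6.31-fold higher at 1462 and 1643 units, but its limma adjusted p went from 0.00736 to 0.0644 without the second array of stage 37-38. The rod arrestin gene sag gave 667 and 593 and then 2063 and 2480.2 units and did not pass. The regulator otx2 fell 1.72-fold, from 813 and 753 units to 461 and 447, and gnb3, for a G protein subunit of cones, was 1.54-fold lower, a call lost with poly-A scaling (limma adjusted p = 0.158) and without the second array of stage 43 (0.0512). With the 10 late arrays 15 genes of the list were called higher and 5 lower, the latter a smaller share than the 29.4% of all genes.

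Of 25 tested genes for cartilage, bone and matrix, 4 rose, about the same share as the 15.9% of all genes. The cartilage matrix gene matn1 gave 11.1 and 1.12 units at stage 37-38 and 576 and 640.5 at stage 43, at least 3.48-fold. The collagen genes col9a2 and col9a1, for a collagen that coats the fibrils of cartilage, rose 2.36-fold to 2281 and 2275 units and 1.84-fold to 8007 and 7589. The remaining chain of the same collagen, col9a3, gave 2878 and 2839 units and then 6389 and 6288, with a limma adjusted p of 0.0516. With the 10 late arrays 16 members were called higher, against 21.7% of all genes, and 1 lower.

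**Figure D3:**
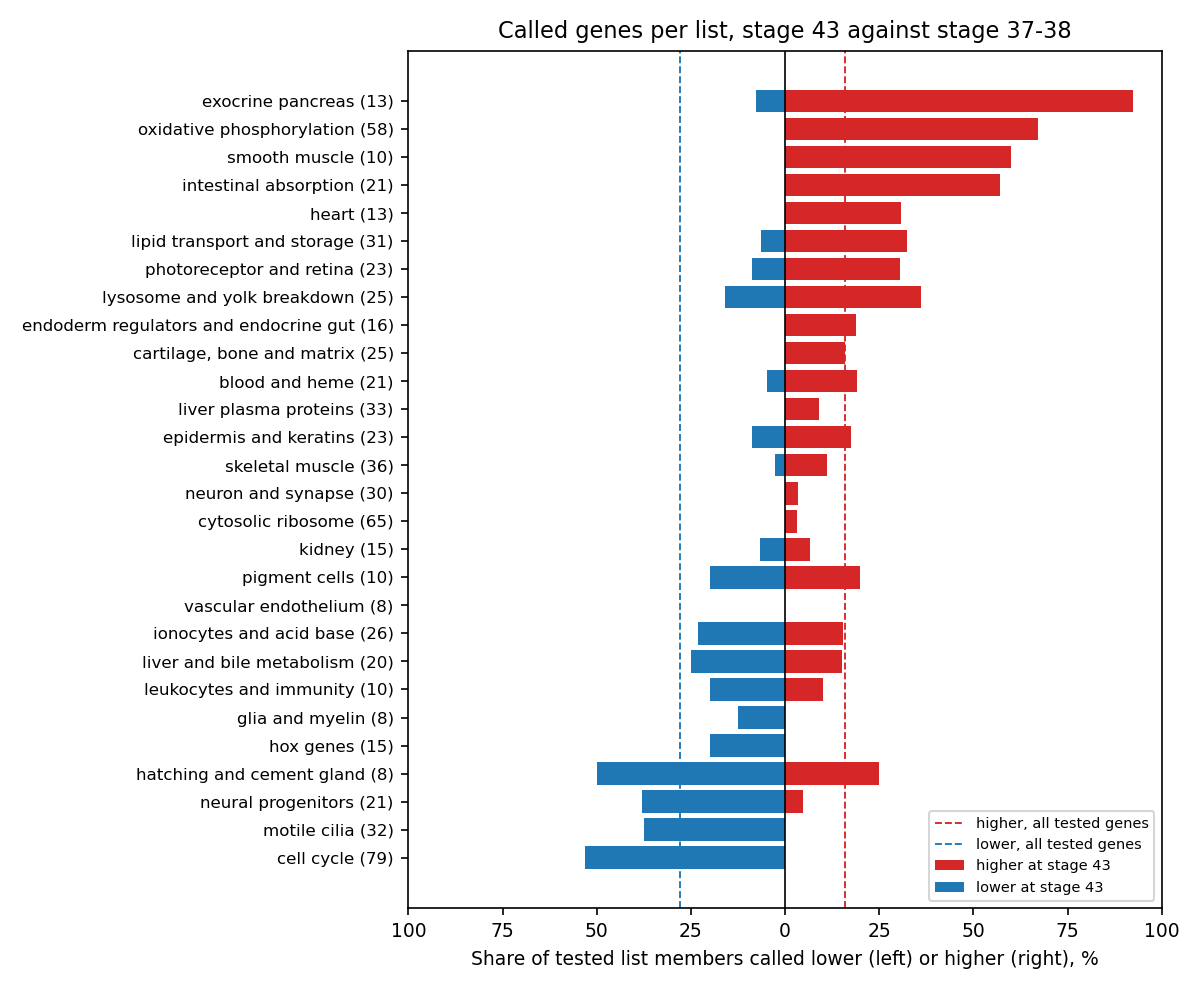
Share of the tested members of each gene list called higher (right) or lower (left) at stage 43, in percent, with the number tested in brackets and dashed lines at the shares of all tested genes, for lists with at least 8 tested members. Exocrine pancreas, oxidative phosphorylation, smooth muscle and intestinal absorption lie farthest to the right of the line for higher calls, and cell cycle and hatching and cement gland farthest to the left of the line for lower calls. All pancreas genes called higher, and some of those for smooth muscle, intestine, skeletal muscle, heart and other lists, were tested only through their signal at stage 43.

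Genes of oxidative phosphorylation, the mitochondrial chain that makes ATP, rose in many small steps. All 58 tested had a higher mean at stage 43, and 39 (67.2%) were called higher, against 15.9% of all genes, and none lower. Their median log2 change was 0.22 and the largest 0.50. The complex I gene ndufa10 went from 3218 and 3290.1 units to 4412 and 4827, 1.42-fold (limma adjusted p = 9.20e-07), and sdha, for the flavoprotein of complex II, rose 1.39-fold from 4228 and 4367 to 5927 and 6015. With poly-A scaling 30 were called higher and none lower. Of 65 genes of the cytosolic ribosome 2 were called higher, with a median log2 change of 0.05; the difference between the lists was not tested.

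Lipid and lysosome genes were called higher more often than lower, whereas 15.9% of all genes were higher and 28.0% lower. Of 31 tested genes of lipid transport and storage 10 rose and 2 fell, and with poly-A scaling 8 rose and 0 fell. The isomerase gene idi1, of the pathway that leads to cholesterol, rose 2.07-fold from 209 and 248 units to 436 and 511, and the endothelial lipase gene lipg rose 1.68-fold. The fatty acid ligase gene acsl1 was 1.48-fold lower, a call lost with poly-A scaling (limma adjusted p = 4.07e-06 and 0.0814). Of 25 lysosomal genes, which include the proteases that digest yolk, 9 rose and 4 fell. With poly-A scaling 7 of them rose and 1 fell, where 13.6% of all genes were higher and 3.83% lower. The progranulin gene grn rose 1.92-fold from 579.6 and 592 units to 1068 and 1184, and the membrane protein gene lamp2 1.74-fold. For the protease gene ctsl, the signals were 39.9 and 16.7 and then 760.0 and 525 units, at least 3.63-fold, a call lost without the second array of stage 37-38. For ctsb the 2 chromosomal copies disagreed: the S copy was higher at stage 43, at 4787 and 4803 units after 4221 and 4073, and the L copy lower, at 2243 and 2389.6 after 3023 and 2892.5. Both calls were lost with poly-A scaling (limma adjusted p 0.0553 and 0.493), and that of the S copy also with median centring and without the second array of stage 37-38.

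Nerve and immune genes gave few calls in the fit of all 30 arrays. Of 21 blood and heme genes 4 (19.0%) rose and 1 fell, against 15.9% and 28.0% of all genes. The heme synthesis gene ppox was 1.22-fold higher, a call lost with poly-A scaling and without the second array of either stage (limma adjusted p 0.0509, 0.0543 and 0.0546), and the call of the larval globin gene hba-l5, at 15113 and 15856 units after 10862 and 10577, was lost without any 1 array. Of 30 genes of neurons and synapses 1 rose: uchl1, for a neuronal ubiquitin hydrolase, 2.24-fold from 205 and 194 units to 448 and 445. In the fit of the 10 late arrays 11 of the 30 were called higher, against 21.7% of all genes, and 4 lower, against 29.4%. Of 10 leukocyte genes ctss, for a protease of antigen-presenting cells, rose 2.41-fold, while lgals3 was 1.25-fold lower, a call lost with poly-A scaling. The L copy of cebpa was 1.32-fold lower, a call also lost with that scaling and without 1 array of either stage (limma adjusted p 0.0941 and 0.106), and its S copy was higher, at 582 and 561 units after 327 and 307. None of 8 endothelial genes was called in the limma fit, where 1 was higher and 1 lower at an unadjusted p under 0.05. Of 5 leukocyte markers chosen as a check, 3 were above the array median at stage 37-38 and 2 at stage 43. Those above it at both stages were lcp1 and cybb, while mpo was above it at stage 37-38 alone and ptprc and coro1a at neither stage.

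Among falls, the sharpest was that of astl3a.1, for an astacin protease of the family that holds the hatching enzymes. It gave 5813 and 6871 units at stage 37-38 and 8.81 and 9.75 at stage 43, a fall of at least 34.9-fold (log2 change -9.41 ± 0.88 SE, limma adjusted p = 3.73e-07). It had been above the median at every stage from 17 to 37-38, with 7345 and 8370.3 units at stage 31. The secreted protein gene crisp1.5 fell at least 13.8-fold, from 2185 and 2880.4 units to 57.2 and 75.2. For both genes the later arrays were under the median and those of the stages did not overlap.

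The hatching and cement gland list held 8 tested genes, of which 4 fell and 2 rose, against 28.0% and 15.9% of all genes. Besides astl3a.1 and otx2, xa-1 was 7.31-fold lower at 1387 and 476 units after 5671 and 6208, with replicates at stage 43 that lay far apart, and its call was lost without the second array of either stage (limma adjusted p = 0.0106 with all, 0.0542 and 0.132 without). The epidermal regulator dlx3 was 3.25-fold lower, a call lost without any 1 array and with poly-A scaling. The Krüppel-like factor gene klf2 rose at least 2.45-fold, to 359 and 505 units. The other rise was that of ag1, 1.49-fold from 3872 and 3514 units to 5265 and 5770 (limma adjusted p = 2.85e-04). The gene agr2, described above, belongs to this list too.

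The keratin gene krt12.2 fell 3.34-fold, from 7974 and 8312 units to 2609 and 2276 (log2 change -1.74 ± 0.43 SE, limma adjusted p = 0.00381). Its other tested probe set was not called. In the epidermal list as a whole 4 of 23 genes were higher and 2 lower, the latter a smaller share than the 28.0% of all genes. In the fit of the 10 late arrays, however, 7 were called higher and 7 lower, against 21.7% and 29.4% of all genes. Among the rises, upk1a, for a urothelial plaque protein, rose 1.39-fold and the tight junction gene cldn4 1.41-fold. The anion exchanger gene slc26a4l, related to pendrin, fell at least 6.03-fold, from 1121 and 1065 units to 72.8 and 83.6 (limma adjusted p = 5.74e-04). Of 26 genes of ionocytes, the acid-base cells of the skin, 4 (15.4%) rose and 6 (23.1%) fell, near the 15.9% and 28.0% of all genes. Of the 6, 5 were for proton pump subunits or partners, but such genes make up most of the list. With poly-A scaling 5 genes of the list rose and none fell. The carbonic anhydrase gene ca12 rose 1.62-fold from 365 and 354 units to 537 and 633.

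Of 32 tested genes for motile cilia, which beat on the embryonic skin and in ducts and ventricles, 12 (37.5%) fell against 28.0% of all genes, and none was called higher. Their median log2 change was -0.27. The tektin gene tekt3, for a protein of the axoneme, fell 1.92-fold from 1116 and 1077 units to 533 and 611 (limma adjusted p = 2.26e-05), and enkur, for a sensor protein of cilia and sperm, fell 1.55-fold from 757 and 708 to 448 and 498. With poly-A scaling 3 of the 32 genes were lower and the median was -0.08, where 256 of all 6692 genes (3.83%) were lower and 909 (13.6%) higher.

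Of 79 tested cell cycle genes 42 (53.2%) fell, against 28.0% of all genes, and none was called higher, with a median log2 change of -0.28. All 42 were lower still at stage 48, as were 3011 of all 3976 probe sets called lower. The cyclin gene ccne1, which drives entry into DNA synthesis, fell 1.66-fold from 322 and 373 units to 229 and 190.4 (limma adjusted p = 3.24e-06), and rpa2, for a subunit of the single-strand DNA binding complex, fell 1.57-fold from 2574 and 2683 to 1769 and 1588. None of the 3 other tested probe sets of rpa2 was called. The helicase gene mcm5 was 1.51-fold lower and the mitotic cyclin gene ccnb2 likewise 1.51-fold, calls that were lost with poly-A scaling (limma adjusted p = 0.0706 and 0.0722). Under that scaling 2 of the 79 genes were called lower, against 3.83% of all genes, and the median was -0.09. The standard error of mcm5 was 0.059 with the deposited scaling and 0.15 with poly-A scaling. With median centring 49 of the 79 were lower, where 2155 of all 6692 genes were. With quantile normalization 38 were lower, where 2025 of all genes were. The number of calls in this group thus depended on whether the poly-A controls set the scale.

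Of 21 neural progenitor genes 8 (38.1%) fell and 1 was called higher, against 28.0% and 15.9% of all genes. With poly-A scaling 3 fell and none rose, against 3.83% and 13.6% of all genes. The RNA-binding protein gene msi1, active in neural stem cells, fell 1.60-fold from 1868 and 1677 units to 1069.9 and 1141 (limma adjusted p = 7.11e-07). Its other tested probe set was not called. The transcription factor gene sox3 was 1.22-fold lower, from 641 and 660.2 to 532 and 536, and this call was lost with poly-A scaling (limma adjusted p = 5.05e-04 and 0.706). All 15 tested hox genes, which set position along the body axis, had a lower mean at stage 43, and 3 were called, a smaller share than the 28.0% of all genes. In the fit of the 10 late arrays, however, 9 of the 15 were called lower, a larger share than the 29.4% of all genes. The posterior gene hoxb9 fell at least 1.64-fold, from 314 and 282 units to 139.6 and 163, after 1299 and 1455 at stage 28. The calls of hoxc10 and hoxd11 were lost with poly-A scaling, which left 1 hox gene called lower and a list median of -0.16, and that of hoxc10 also without any 1 array (limma adjusted p 0.117 to 0.154).

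**Figure D4:**
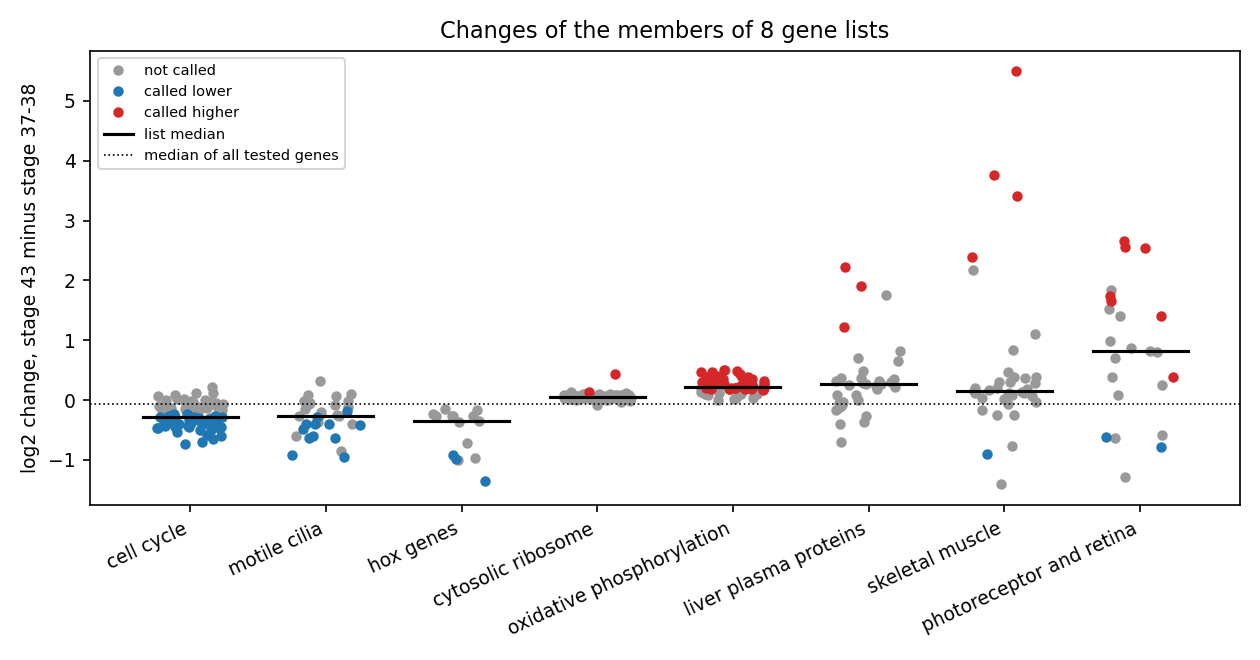
Log2 change from stage 37-38 to stage 43 of each tested member of 8 gene lists, each point a gene, coloured by its call, with a bar at the list median and a dotted line at the median of all tested genes. Oxidative phosphorylation lies in a narrow band above 0 and cell cycle mostly below it under the deposited scaling, while the liver, muscle and photoreceptor lists hold a few large rises above many small changes; poly-A scaling moves every point up by 0.19 and turns none of these 8 medians from below to above 0.

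Other large falls belonged to no list. The gene eef1a1o, for the elongation factor form of oocytes and early embryos, gave 1181 and 1342 units and then 247 and 190.0, a 5.82-fold fall (log2 change -2.54 ± 0.12 SE, limma adjusted p = 1.83e-11), and had stood at 20385 and 19205 units at stage 17. The monoamine transporter gene slc18a1 fell 5.03-fold, from 1086 and 1106 units to 264 and 180.2. The sterol acyltransferase gene soat2 fell 4.71-fold and the histidine ammonia-lyase gene hal.2, for an enzyme of histidine breakdown, 4.22-fold. Of the 35 probe sets that fell at least 4-fold, 29 were lower still at stage 48 and 7 were above the array median there. Among the largest rises outside the lists, thdl18 gave 68.8 and 26.1 units and then 8201 and 8621, at least 48.2-fold, and thdl17 38.7 and 40.1 and then 2947 and 3558, at least 18.6-fold.

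The frog is an allotetraploid that keeps many genes as an L and an S copy. Of 1324 symbols with both copies tested, 107 had both called higher and 211 both called lower, while 503 had neither called. In 16 the calls were opposed. The annexin gene anxa4, for a protein that binds membranes with calcium, showed the widest gap between copies among these 16: its L copy fell from 6773 and 6834 units to 4806 and 4555, and its S copy rose from 2174 and 2008 to 6010.1 and 6262. With poly-A scaling the call of the L copy was lost (limma adjusted p = 0.0706). The L copy gave the higher signal at stage 37-38 and the S copy at stage 43, although levels of different probe sets cannot be set against each other.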

How the data were processed

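The authors deposited 1 linear signal intensity for each probe set and array, computed with MAS5, per the submitters' processing notes. Its version is not given here. The 2% trimmed mean of each deposited array is 500 units, and the values were normalized no further. Detection calls were not used here. Intensities were converted to log2, and 96 control probe sets were left out. Symbols came from GEO's platform annotation, which gave 1 symbol to 15495 probe sets, several to 279, which were not named, and none to 16765. The RefSeq table (assembly v10.1) held the Entrez identifiers of 15384, of which 2 had been renamed, and no coordinates were used.

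The fit used limma 3.58.1 (R 4.3.3). Each stage's mean was estimated in 1 linear model of all 30 arrays, which left 15 residual degrees of freedom, moderated with trend and robust settings, fitted on the 23403 probe sets above the array median in both arrays of at least 1 stage. P-values were adjusted by Benjamini-Hochberg over the 16823 probe sets of the comparison. Copies named L and S shared 1 symbol, represented by its brightest probe set over the 30 arrays. For rpa2, pygm, mcm5, msi1, krt12.2, hal.2, ctse, tm4sf5, tf, myl3, ctss, ndufa10 and chga other probe sets were tested and none was called. Bounds set the brighter stage's mean against, per array of the dimmer stage, the higher of the gene's signal and the array median. Named genes are a selection from the 15 largest bounded rises and falls among called genes without overlap, up to 5 called members of each of 33 gene lists, and the tested pancreas and stomach genes; other genes were named after their values were seen. The comparison and the lists were chosen with earlier results of these data known.

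The deviations of same-numbered arrays from their stage means correlated at 0.0146, so the replicate numbers were not used to pair arrays. Alternatives were quantile normalization, median centring, scaling on poly-A controls (12 probe sets), testing without a filter or above the 75th percentile, adding 50 units before log2, plain moderation, no cross-hybridising probe sets, the replicate block, the 4 arrays alone, the 10 arrays of stages 28 to 48, array weights by stage, adjustment over all stages, a stricter adjusted p (0.01), a 2-fold minimum besides the test, averaging a gene's probe sets, and leaving out each array. The fit was tested on simulated data. Python 3.11.15 and matplotlib 3.10.9 drew the figures.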

Additional observations from a re-analysis of the deposited data

How the results depend on the processing

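The number of probe sets higher at stage 43 was 2422 with all 30 arrays and 1623 to 1838 when 1 array of either stage was left out. It was 1502 with the filter at the 75th percentile, 1606 at an adjusted p of 0.01, 546 with the 2-fold threshold, 3815 with 50 units added, 3875 with the 4 arrays alone and 3653 with the 10 late arrays. The number lower was 3976, against 2879 to 3356 without 1 array, 568 with poly-A scaling and 218 with the 2-fold threshold. That threshold was set on the fitted log2 change without the array-median floor, so its counts exceed the 2-fold counts given earlier. The share of calls that were higher was 37.9%, against 35.4% to 37.4% without 1 array, and turned to a majority with poly-A scaling (78.4%) and with the 2-fold threshold (71.5%). The cause was not tested, except that the stricter threshold and filter leave fewer features by construction. With the replicate number as a block 2413 probe sets were higher and 3983 lower, and of the named genes 1, chga, lost its call. The blocked fit changed no count of pancreas, stomach or intestine genes. The number of pancreas genes higher was 12 without any 1 array and 12 to 15 under the other alternatives, except the 75th percentile filter, which tested fewer of them and called 8. That filter left 0 lower, as did leaving out the second array of stage 43 (0 to 1 without 1 array). The number of intestinal genes higher was 12, against 8 to 11 without 1 array, 19 with 50 units added, 20 with the 4 arrays alone and 7 with the 2-fold threshold. The number of stomach genes higher was 2, against 4 when a gene's probe sets were averaged. The number lower was 1, against 0 with poly-A scaling, an adjusted p of 0.01 or the 2-fold threshold, 2 with the 4 arrays alone or the 10 late arrays, and 0 to 1 without 1 array. Of 139 named genes, 30 lost a call with poly-A scaling and 18 to 30 without 1 array. None reversed its direction under any alternative run. Probe sets under the array median have only a bound, and signals near 0 carry little information on order.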

Other observations

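The following genes were chosen after their values were seen. The immediate early genes fos and junb, which cells switch on within minutes of a stimulus, were higher at stage 43. The signals of fos were 66.8 and 91.7 units at stage 37-38 and 733 and 1454 at stage 43, at least 5.92-fold higher (limma adjusted p = 9.09e-06), and those of junb 195 and 234 and then 903 and 1244, 4.96-fold (limma adjusted p = 3.13e-05). The related gene ier2 gave 307 and 320.3 units and then 953 and 1396, 3.68-fold. In each case the second array of stage 43 was the higher one. No cause was tested.

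The gene ppat, for the first enzyme of purine synthesis, went from 1742 and 1739.8 units to 538 and 494, a 3.38-fold fall (limma adjusted p = 5.56e-11), and gart, for an enzyme of later steps of that pathway, from 569.7 and 673 to 263 and 239, a 2.47-fold fall (limma adjusted p = 1.02e-06).

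The peptidoglycan recognition protein gene pglyrp1 reached 1016 and 1660.2 units from signals under the array median, at least 7.45-fold. The galectin gene lgals4.1 rose 7.93-fold to 5839 and 6564 units, the tight junction gene cldn18 at least 8.24-fold to 1428 and 1516, and the drug efflux pump gene abcb1 at least 8.60-fold to 1399.6 and 1604. The carboxypeptidase gene cpo.1 rose 8.31-fold to 1682 and 2392 units. Of the 37 probe sets that rose at least 10-fold, 12 had no single symbol, as had 3 of the 5 that fell at least 10-fold.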
